A study of Mus musculus with 20 samples.

Results

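The 10 genes described here make the enzymes and carriers with which the liver turns amino acid nitrogen into urea: Nags, Cps1, Otc, Slc25a15, Ass1, Asl and Arg1 of the urea cycle, Gls2 for glutamine, Tat for tyrosine and Sds for serine and threonine. They were taken by symbol from a table of 53028 Ensembl genes, and all 10 were found and passed the filter on low values in every comparison. The table holds 20 libraries from the livers of 10 male C57BL/6J mice on standard chow. From each mouse 1 library was made from total RNA (the input lysate) and 1 from RNA of the polysome fractions of a sucrose gradient, that is, mRNA loaded with several ribosomes. Of these mice, 5 had received a locked nucleic acid oligonucleotide (LNA) against GFP, which has no target in the mouse and served as control (mice 1, 2, 3, 8 and 9), and 5 an LNA against the small nucleolar RNA SNORA73 (mice 4, 6, 10, 11 and 12). Both LNAs were given intraperitoneally at 3 mg/kg in 3 injections, every other day. By the methods of the chow study the mice were 8 weeks old and were killed 2 days after the last injection. The methods of the liver polysome preparation give 10 weeks of age and a cycloheximide injection shortly before the liver was taken. By the sequencing methods, total RNA came from liver lysed in polysome buffer and polysome RNA from the matching fractions, and no age is stated there. The labels write the target as snoRA37, whereas the study's design text names SNORA73. In bulk liver, fewer cells of a type and less RNA per cell cannot be told apart.

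The urea cycle runs in hepatocytes, mostly those around the portal vein, and is divided between mitochondria and cytosol. In mitochondria Nags makes N-acetylglutamate, the activator that Cps1 needs to join ammonia and bicarbonate into carbamoyl phosphate, and Otc passes this to ornithine to form citrulline. Slc25a15 exchanges ornithine for citrulline across the inner membrane, after which Ass1 and Asl make arginine in the cytosol and Arg1 releases urea. Gls2, the liver glutaminase, supplies ammonia to the cycle. Tat starts the breakdown of tyrosine and Sds deaminates serine and threonine to keto acids, and both genes are classic targets of glucocorticoids and glucagon.

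The oligonucleotides that set the comparison are 20 bases long, with 10 LNA bases at the ends (capitals) around 10 DNA bases (lower case), a layout that recruits RNase H to the paired RNA. They are shown because the groups differ in nothing else that the labels name. The study turned to SNORA73 LNA 2 for its further work in mice, and the labels of the sequenced samples do not say which of the pair was used.
GFP LNA: TCACCttcaccctctCCACT
SNORA73 LNA 1: AAGTCgtaggaatatGCAGG
SNORA73 LNA 2: GACTCtgagaagtcgTAGGA

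Knockdown could not be checked in these libraries, which were made from polyadenylated RNA: Snora73a held at most 2 estimated counts and Snora73b at most 4 in any library. Depth was 20005389 to 42023390 counts in total RNA and 14852951 to 33824659 in polysome RNA, and it was lower with SNORA73 LNA (median 22543046 in total RNA) than with GFP LNA (median 31996106). The members were well covered, with 481 to 90588 counts per library. Mitochondrially encoded transcripts took 11.2% to 15.4% of counts in total RNA and 1.76% to 3.89% in polysome RNA. Values are given as CPM, counts relative to library size, after TMM normalization over the 20 libraries. They were not divided by transcript length, so levels can be compared for 1 gene between libraries and not between genes.

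None of the 10 members passed an FDR of 0.05 in total RNA with SNORA73 LNA against GFP LNA (edgeR quasi-likelihood test, Benjamini-Hochberg adjusted), where 0.0303% of 13195 genes tested passed. The groups overlapped for every member, whereas 1.84% of genes tested did not overlap. The fitted log2 fold change was above 0 for 8 of 10 members, beside 51.7% of all genes tested. Its median was 0.15 for the members against 0.0070 for all genes tested. Only Sds and Nags had an unadjusted p under 0.05, that is 2 of 10 members beside 8.65% of all genes tested. The count above 0 and the median depended on single mice. With 1 mouse left out at a time, the median was lowest without SNORA73 mouse 12, at 0.022 with 5 of 10 above 0. It was highest without GFP mouse 2, at 0.25 with 9 of 10 above 0.

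**Figure D1:**
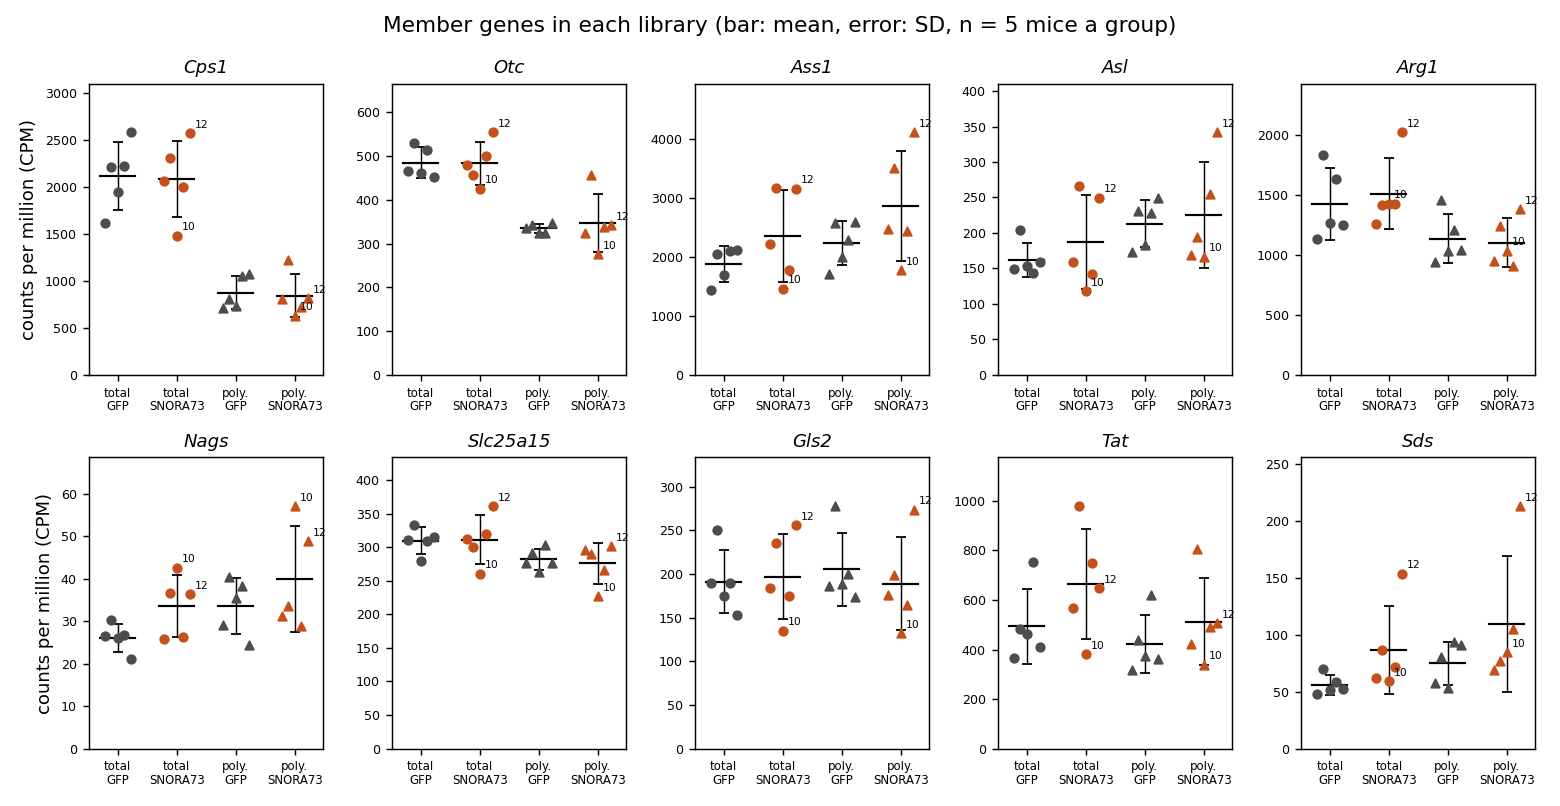
CPM of the 10 members (y axis, from 0) in total RNA (circles) and polysome RNA (triangles) of mice given GFP LNA (grey) or SNORA73 LNA (orange); each point is 1 library, horizontal bars are means and error bars SD (n = 5), and mice 10 and 12 are numbered. The SNORA73 points spread over and beyond the GFP points, and Cps1 is lower in polysome RNA, with means of 876 and 841 CPM, than in total RNA, with means of 2118 and 2086 CPM.

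Of the 4 members that make up the mitochondrial arm of the cycle, Cps1, Otc and Slc25a15 had nearly the same mean in both groups of total RNA. Cps1 (chr1:67122426-67231267, GRCm38.p6) was at 1617, 2215, 1947, 2227 and 2583 CPM in the GFP mice 1, 2, 3, 8 and 9. It was at 2068, 2307, 1483, 2001 and 2572 CPM in the SNORA73 mice 4, 6, 10, 11 and 12, so mouse 10 lay below every GFP mouse and the others lay within their range. The log2 fold change of Cps1 was -0.024 (SE 0.16, adjusted p = 0.990, edgeR), with a 95% interval of the fold from 0.773 to 1.25. Otc, which is X-linked (chrX:10252230-10321024), averaged 484 ± 35.4 CPM (SD, n = 5) with GFP LNA and 483 ± 48.6 CPM with SNORA73 LNA. Slc25a15 (chr8:22375550-22398621) averaged 309.6 ± 19.8 CPM (SD, n = 5) and 311 ± 36.4 CPM. These were the members with the narrowest intervals, from 0.861 to 1.15 for the fold of Otc and from 0.862 to 1.17 for that of Slc25a15.

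Nags, the gene of the Cps1 activator (chr11:102145513-102149528), had the largest difference in this arm. It was at 26.5, 30.3, 26.0, 26.7 and 21.0 CPM in the GFP mice 1, 2, 3, 8 and 9 of total RNA and at 25.8, 36.6, 42.6, 26.4 and 36.3 CPM in the SNORA73 mice 4, 6, 10, 11 and 12. Mice 6, 10 and 12 thus lay above every GFP mouse and mice 4 and 11 lay among them. The log2 fold change was 0.36 (SE 0.15, adjusted p = 0.509, edgeR). Without mouse 10 it was 0.26, and without mice 9 and 10 it was 0.20 (adjusted p = 0.609, edgeR).

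In the cytosolic arm, Ass1, which joins citrulline and aspartate (chr2:31470270-31520670), was at 1436, 2054, 1698, 2108 and 2119 CPM in the GFP mice 1, 2, 3, 8 and 9 of total RNA. In the SNORA73 mice 4, 6, 10, 11 and 12 it was at 2220, 3167, 1460, 1778 and 3157 CPM. Mice 4, 6 and 12 exceeded all GFP mice, while mice 10 and 11 lay in the lower part of the GFP range. The log2 fold change was 0.32 (SE 0.21, adjusted p = 0.734, edgeR). Asl, which cleaves argininosuccinate (chr5:130011258-130024381), ranged from 118 to 266 CPM with SNORA73 LNA and from 144 to 204 CPM with GFP LNA. Mice 6 and 12 lay above all GFP mice, mice 10 and 11 below them and mouse 4 among them. The log2 fold change of Asl was 0.21 (SE 0.21, adjusted p = 0.837, edgeR). Arg1 (chr10:24915207-24927470) averaged 1424 ± 297 CPM with GFP LNA and 1509 ± 295 CPM with SNORA73 LNA (SD, n = 5), and only mouse 12, at 2022 CPM, lay outside the GFP range. Kallisto divides reads that fit transcripts of several genes, and the estimated counts of Ass1 were not whole numbers (by more than 1e-06) in 20 of 20 libraries and those of Asl in 4, so part of their reads was shared with other genes.

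Among the genes that feed the cycle, Sds (chr5:120476547-120483932) had the largest difference of all members. It was at 47.7, 70.2, 51.6, 58.6 and 52.4 CPM in the GFP mice 1, 2, 3, 8 and 9 of total RNA and at 62.4, 86.5, 59.3, 71.4 and 153 CPM in the SNORA73 mice 4, 6, 10, 11 and 12. Mice 6, 11 and 12 lay above every GFP mouse, and GFP mouse 2 lay above mice 4 and 10. The log2 fold change was 0.62 (SE 0.23, adjusted p = 0.484, edgeR), and it was 0.32 without mouse 12.

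Tat (chr8:109986078-109999804) was at 368, 481, 462, 752 and 408 CPM in the GFP mice 1, 2, 3, 8 and 9 and at 566, 979, 381, 748 and 648 CPM in the SNORA73 mice 4, 6, 10, 11 and 12. Only mouse 6 lay outside the GFP range. The log2 fold change of Tat was 0.43 (SE 0.24, adjusted p = 0.686, edgeR). Gls2 (chr10:128194635-128210004) averaged 191 ± 36.2 and 197 ± 48.6 CPM (SD, n = 5), a difference smaller than the spread within either group.

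Some of these directions rest on the normalization. TMM factors in total RNA were lower with SNORA73 LNA (0.877 to 0.982) than with GFP LNA (1.01 to 1.06). Scaled by library totals alone, the median of all genes shifted to -0.14 and only 5 of 10 members stayed above 0: Arg1, Slc25a15 and Gls2 moved below it, while Sds, Tat, Nags, Ass1 and Asl stayed above. Slc25a15 also changed sign with limma-voom, with DESeq2 and with no filter on low values. The study kept 4 mice per group and left out samples that failed to cluster in a principal component analysis, without naming them. The comparisons above keep every mouse, and as an alternative mice 9 and 10 were left out. Without them all 10 members lay above 0, with Sds at 0.71, Tat at 0.51, Ass1 at 0.50 and Cps1 at 0.16, and still 0 of 10 passed the FDR of 0.05, while 97 genes were called in all, against 4 with every mouse. Of the 97 genes 76 were higher and 21 lower, and in polysome RNA 27 were higher and 4 lower. These numbers were close to those the study reported, which used limma and a fold change cut-off for higher genes. Whether the study left out the same mice was not tested.

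**Figure D2:**
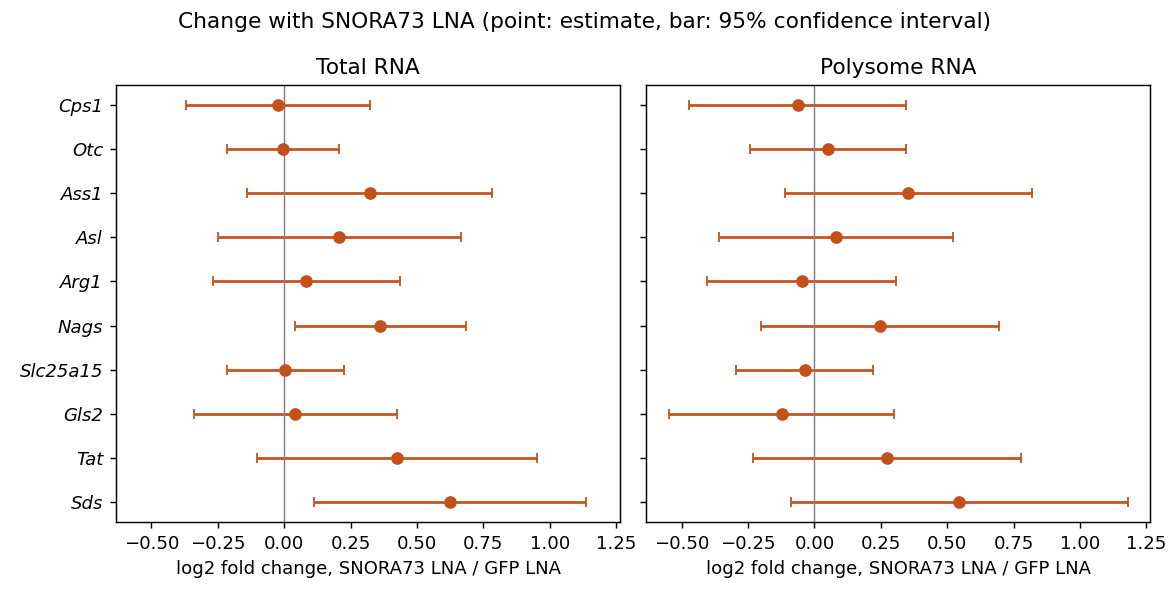
Log2 fold change of each member with SNORA73 LNA against GFP LNA (x axis) in total RNA (left) and polysome RNA (right), 5 mice a group; points are edgeR estimates and bars their 95% confidence intervals. In total RNA the intervals of Nags and Sds lie above 0 before adjustment over all genes, and in polysome RNA every interval includes 0.

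In polysome RNA, too, none of the 10 members passed the FDR of 0.05 with SNORA73 LNA, where 0.0153% of 13060 genes tested passed, and the groups overlapped for every member, as they did for all but 3.23% of genes tested. The median log2 fold change of the members was 0.065, against -0.011 for all genes tested, and 6 of 10 lay above 0, beside 48.6% of all genes tested. None had an unadjusted p under 0.05, beside 13.4% of genes tested. Scaled by library totals the median of all genes was -0.17, and 4 members lay above 0.

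Sds and Ass1 had the largest log2 fold changes in polysome RNA. Sds was at 57.5, 80.3, 52.9, 93.8 and 90.9 CPM in the GFP mice 1, 2, 3, 8 and 9 of polysome RNA and at 68.8, 76.8, 84.4, 105 and 213 CPM in the SNORA73 mice 4, 6, 10, 11 and 12. Mouse 12 stood far above the others, and the log2 fold change of 0.55 (SE 0.29, adjusted p = 0.445, edgeR) was 0.16 without it. Ass1 averaged 2237 ± 381 CPM with GFP LNA and 2865 ± 934 CPM with SNORA73 LNA (SD, n = 5), a log2 fold change of 0.35 (SE 0.22, adjusted p = 0.510, edgeR).

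The other members differed less. Tat had a log2 fold change of 0.27 and Nags of 0.25, which was -0.0026 without mice 9 and 10. Asl was at 0.081 and Otc at 0.050, and both lay below 0 with library totals. Slc25a15 was at -0.037, Arg1 at -0.048, Cps1 at -0.062 and Gls2 at -0.12. Otc varied little among the GFP mice of polysome RNA, at 335 ± 10.2 CPM, and far more among the SNORA73 mice, at 348 ± 66.3 CPM (SD, n = 5), with mouse 6 highest at 456 CPM and mouse 10 lowest at 276 CPM.

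Whether SNORA73 LNA changed polysome RNA beyond total RNA was tested as an interaction over all 20 libraries. None of the 10 members passed the FDR of 0.05, beside 0.00725% of 13795 genes tested, and the same held when the mouse was included as a replicate block. The values were small, from -0.16 for Gls2 to 0.058 for Otc, and 8 of 10 lay below 0 with a median of -0.096, against -0.014 for all genes tested. Blocking by mouse narrowed the errors. For Ass1 the blocked difference was 0.040 (SE 0.095), for Tat -0.15 (SE 0.10) and for Gls2 -0.17 (SE 0.096, adjusted p = 0.677, edgeR), the last being the member with the lowest blocked adjusted p.

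**Figure D3:**
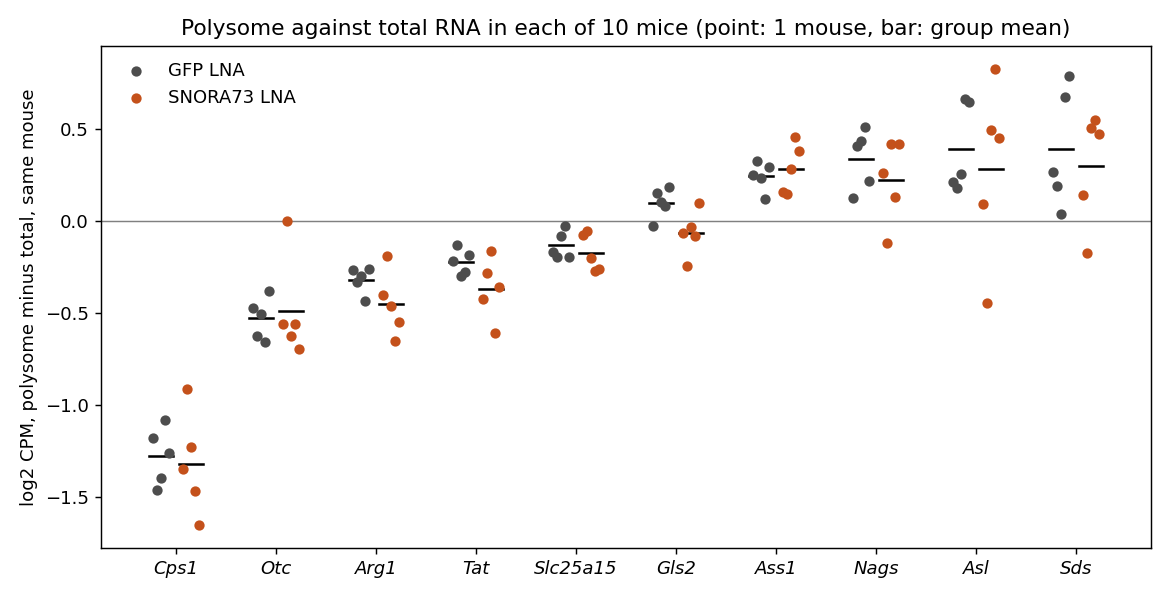
Log2 CPM in polysome RNA minus log2 CPM in total RNA of the same mouse (y axis) for each member, ordered by its mean; grey points are 5 GFP LNA mice, orange points 5 SNORA73 LNA mice and bars group means. Cps1 lies lowest at a mean of -1.30 over 10 mice, Ass1 lies above 0 in every mouse, and the 2 groups overlap for each gene.

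Between the RNA fractions some members differed clearly. Against total RNA of the GFP mice, 2 of 10 members passed the FDR of 0.05, both lower in polysome RNA. Of 13795 genes tested 42.8% passed, 21% lower and 21.8% higher. With SNORA73 LNA 3 of 10 passed, all lower, beside 38% of genes in either direction and 18.2% lower. The 2 libraries of a mouse come from the same liver, and with the mouse as a replicate block 8 of 10 members passed with GFP LNA and 6 of 10 with SNORA73 LNA. With GFP LNA these were 4 higher and 4 lower, beside 56.1% of all genes, 28.9% higher and 27.2% lower. With SNORA73 LNA they were 1 higher and 5 lower, beside 51.1% of all genes, 26% higher and 25.1% lower. All of these values are relative to the other transcripts of a library, not ribosomes per mRNA.

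Cps1 fell most. With GFP LNA its log2 difference was -1.27 (SE 0.18, adjusted p = 1.4e-05, edgeR), that is 41.3% of the level in total RNA, and the groups did not overlap, as for 35% of genes tested (17.1% lower). With SNORA73 LNA it was -1.31 (SE 0.18, adjusted p = 1.37e-05, edgeR), again without overlap, as for 22.7% of genes (11.3% lower). Within mice the polysome level was 44.1%, 36.2%, 37.9%, 47.1% and 41.6% of the total level in mice 1, 2, 3, 8 and 9 and 39.2%, 53.1%, 42.6%, 36.0% and 31.8% in mice 4, 6, 10, 11 and 12. Mice 6 and 12 of the SNORA73 group thus marked both ends of the range. Among all genes tested the GFP value of Cps1 stood at the 4.99th percentile.

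Otc, the next enzyme, fell as well, by 0.53 on the log2 scale with GFP LNA (SE 0.11, adjusted p = 8.0e-04, edgeR) and by 0.47 with SNORA73 LNA (SE 0.11, adjusted p = 0.00238, edgeR). It was lower in polysome RNA in 9 of 10 mice. The exception was mouse 6, where the 2 libraries were equal at 456 CPM, and the values of the other 9 mice ran from 61.8% to 76.7% of total RNA. Arg1 was lower in 10 of 10 mice, with a log2 difference of -0.33 with GFP LNA (SE 0.16, adjusted p = 0.119, edgeR, and 0.00153 with the replicate block) and -0.45 with SNORA73 LNA (SE 0.17, adjusted p = 0.0352, edgeR, and 1.05e-04 with the replicate block). The unblocked call for Arg1 was lost without any one of mice 4, 10, 11 and 12 (adjusted p 0.053 to 0.102) without mice 9 and 10 (adjusted p = 0.0693), with library totals (0.0685) and with no filter (0.0692).

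Tat and Slc25a15 were lower in polysome RNA in 10 of 10 mice by smaller amounts, on average -0.29 and -0.15 on the log2 scale. Tat passed with the replicate block in both groups (adjusted p = 0.0153 and 5.5e-04, edgeR) and Slc25a15 with SNORA73 LNA only (adjusted p = 0.0370 against 0.0945 with GFP LNA). Of all genes tested, 19.2% were lower in polysome RNA in all 10 mice, and 4 of 10 members were: Cps1, Arg1, Slc25a15 and Tat.

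Ass1 went the other way. It was higher in polysome RNA in 10 of 10 mice, as were 20% of genes tested, at 109% to 137% of the total level. Its log2 difference was 0.25 with GFP LNA (adjusted p = 0.394, edgeR, and 0.00574 with the replicate block) and 0.28 with SNORA73 LNA (adjusted p = 0.346, edgeR, and 0.00235 with the replicate block). The SE was 0.22 without the block and 0.067 with it.

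Asl, Nags and Sds were higher in polysome RNA in 9 of 10 mice each, and in all 3 the exception was mouse 6. They passed with the replicate block in the GFP group (adjusted p = 0.0266 for Asl, 0.00480 for Nags and 0.0129 for Sds, edgeR) and not in the SNORA73 group (0.105, 0.0518 and 0.0513). The difference between the groups was not called for any of them in the interaction test. Gls2 was higher in 5 mice and lower in 5, with mean differences of 0.10 with GFP LNA and -0.066 with SNORA73 LNA.

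Ratios within a library do not depend on scaling. Cps1 and Arg1 were lower and Ass1 higher in 10 of 10 mice above, so the direction of the ratios of Cps1 and Arg1 to Ass1 follows from those values. The log2 ratio of Cps1 to Ass1 was lower in polysome than in total RNA in 10 of 10 mice, by a mean of -1.57 (SD 0.30, n = 10). For Otc to Ass1 the mean was -0.78 (SD 0.26), for Arg1 to Ass1 -0.65 (SD 0.22) and for Cps1 to Otc -0.79 (SD 0.17), each again lower in 10 of 10 mice. The ratio of Tat to Sds was lower in 10 of 10 mice as well, by a mean of -0.64 (SD 0.34). The ratio of Asl to Ass1 showed no such shift, with a mean of 0.073 (SD 0.32) and 4 of 10 mice lower.

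The members shared much of their variation between mice. In total RNA all 10 members of mouse 12 lay above their mean over the 10 mice, with a mean log2 deviation of 0.46, and mouse 12 was highest or second for 8 of them. Mouse 6 followed at 0.31. Mouse 10, of the same LNA group, was lowest or second lowest for 7 members and had a mean deviation of -0.26, and GFP mouse 1 had -0.27. The same mice stood at the ends in polysome RNA, at 0.43 for mouse 12, 0.22 for mouse 6, -0.22 for mouse 10 and -0.27 for mouse 1. Over all genes tested, which the normalization centres, the mean deviation of a mouse was within -0.062 to 0.025. Several other lists were likewise high in mice 12 and 6 and low in mouse 10 in total RNA. The median deviations in mice 12, 6 and 10 were 0.27, 0.29 and -0.44 for 8 genes of tyrosine and phenylalanine breakdown, 0.26, 0.32 and -0.72 for 4 of histidine breakdown, 0.28, 0.23 and -0.31 for 8 aminotransferases and 0.14, 0.14 and -0.36 for 7 hepatocyte markers. In mouse 1, which was low for the members, these lists were at -0.047, 0.034, -0.10 and 0.14. The 10 other urea cycle and ammonia genes did not show this, with medians of 0.029, -0.021 and 0.095 in mice 12, 6 and 10. What lies behind it was not tested.

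**Figure D4:**
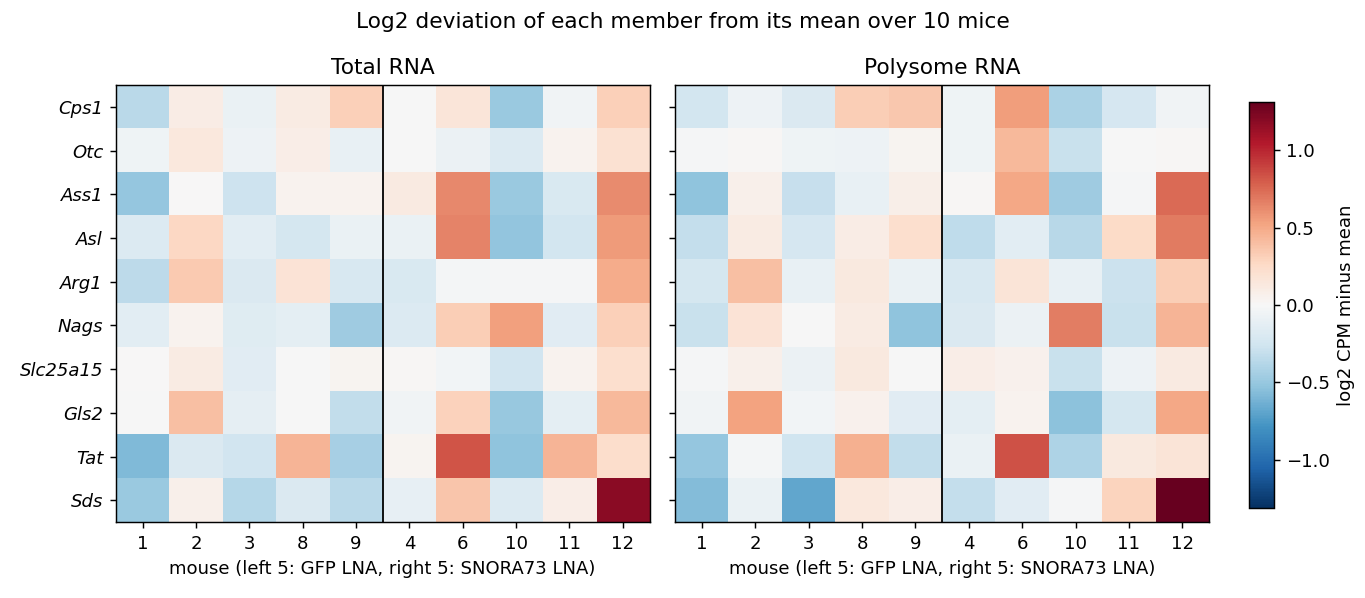
Log2 CPM of each member (rows) minus its mean over the 10 mice, for each mouse (columns), in total RNA (left) and polysome RNA (right); red is higher and blue lower, and the vertical line separates GFP LNA from SNORA73 LNA mice. Mouse 12 is red for most members, mouse 10 is blue for most members, and Nags in mouse 10 is the exception at 0.54 in total RNA.

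Nags stood apart from this shared pattern. In mouse 10 it lay 0.54 above its mean in total RNA and 0.67 in polysome RNA, the highest of the 10 mice, while Cps1 lay at -0.48 and -0.41. The spread between mice also differed by gene. The highest total RNA library held 1.30 times the CPM of the lowest for Otc and 1.39 times for Slc25a15, 1.74 times for Cps1 and 1.78 times for Arg1, 2.21 times for Ass1, 2.25 times for Asl, 2.66 times for Tat and 3.21 times for Sds. In polysome RNA the range of Sds reached 4.02 times.

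The genes outside the 10 whose total RNA was most like the members' mean standardized profile, by Pearson correlation over the 10 mice among 6279 genes with a mean of at least 10 CPM, were Hpd (r = 0.91), Cnn3 (0.89), Gstz1 (0.89), Mettl5 (0.89) and Etfrf1 (0.88). Hpd and Gstz1 encode enzymes of tyrosine breakdown downstream of Tat. Hpd was at 1193, 1324, 1142, 1151 and 1121 CPM in the GFP mice 1, 2, 3, 8 and 9 and at 1182, 1662, 961, 1334 and 1791 CPM in the SNORA73 mice 4, 6, 10, 11 and 12, with mice 6 and 12 highest and mouse 10 lowest. Of the members themselves Sds (r = 0.90), Ass1 (0.88), Gls2 (0.87) and Asl (0.87) lay nearest to their joint profile and Nags farthest (0.32). These values describe 10 libraries, and the members enter their own mean.

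The sequence upstream of an annotated start was at hand for 5 of the 10 members in the RefSeq promoter windows of GRCm38.p6. It is given for Ass1, Tat and Nags, whose correlations with the members' joint profile were 0.88, 0.67 and 0.32. Each run is the 250 bases before an annotated start on the plus strand, and capitals mark matches on either strand to CCAAT and to the Sp1 box GGGCGG. The Ass1 and Nags runs end just before the gene spans given above. The Tat run lies inside the Tat span given above, so it precedes a start within that span and not its first base.
Ass1, chr2:31470020-31470269: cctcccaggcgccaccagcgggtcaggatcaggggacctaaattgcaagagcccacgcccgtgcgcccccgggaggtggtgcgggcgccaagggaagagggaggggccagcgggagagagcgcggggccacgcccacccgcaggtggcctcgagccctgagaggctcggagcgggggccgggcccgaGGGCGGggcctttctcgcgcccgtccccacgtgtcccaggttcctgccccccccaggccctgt
Tat, chr8:109990186-109990435: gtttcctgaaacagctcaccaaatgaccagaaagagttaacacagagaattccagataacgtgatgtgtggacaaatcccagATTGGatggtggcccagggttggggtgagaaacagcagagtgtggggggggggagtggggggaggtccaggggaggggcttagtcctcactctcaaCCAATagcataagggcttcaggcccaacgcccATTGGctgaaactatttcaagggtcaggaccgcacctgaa
Nags, chr11:102145263-102145512: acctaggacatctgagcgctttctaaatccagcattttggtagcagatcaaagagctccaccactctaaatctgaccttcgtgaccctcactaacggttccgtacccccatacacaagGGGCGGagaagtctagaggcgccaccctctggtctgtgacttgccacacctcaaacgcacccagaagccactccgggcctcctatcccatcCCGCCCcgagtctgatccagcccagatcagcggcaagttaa
The Ass1 stretch is GC-rich, at 75.6%, against a median of 52.4% over 32851 windows, with 53.6% for Tat and 55.6% for Nags. GGGCGG was found once upstream of Ass1, at -63 to -58, and at 2 places upstream of Nags, and 32.7% of all windows of this length hold it. CCAAT was found at 3 places upstream of this inner Tat start, at -168 to -164, -72 to -68 and -40 to -36, and 33.8% of windows hold it. No window of these 3 genes matched TATAAA (12.4% of all windows), the cAMP response element TGACGTCA (1.55%) or its core TGACG (17.8%), which lies within it, the palindromic glucocorticoid response element (0.00913%) or its single arm TGTTCT (16.1%), which lies within it, or the C/EBP palindrome TTGCGCAA (0.164%). A match is a description of the letters, and these motifs were searched in this stretch alone.

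Around the members, 90 further genes of the urea cycle and of amino acid breakdown, in 10 lists, passed the filter. With SNORA73 LNA 0 of the 90 passed the FDR of 0.05 in total RNA, with a median log2 fold change of 0.014, and 0 of 90 in polysome RNA, with a median of -0.10 against -0.011 for all genes tested. Of all genes tested 0.0303% passed in total RNA and 0.0153% in polysome RNA. In polysome RNA 57 of the 90 lay below 0. Sirt5, the mitochondrial desuccinylase that acts on Cps1, was at -0.20 in total RNA (adjusted p = 0.542, edgeR). The lowest p among the 90 belonged to Dmgdh, an enzyme of choline and glycine breakdown, at 0.36 (SE 0.089, adjusted p = 0.300, edgeR), and Gclc, the catalytic subunit of the enzyme that starts glutathione synthesis, was at -0.55 (SE 0.15, adjusted p = 0.357, edgeR).

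**Figure D5:**
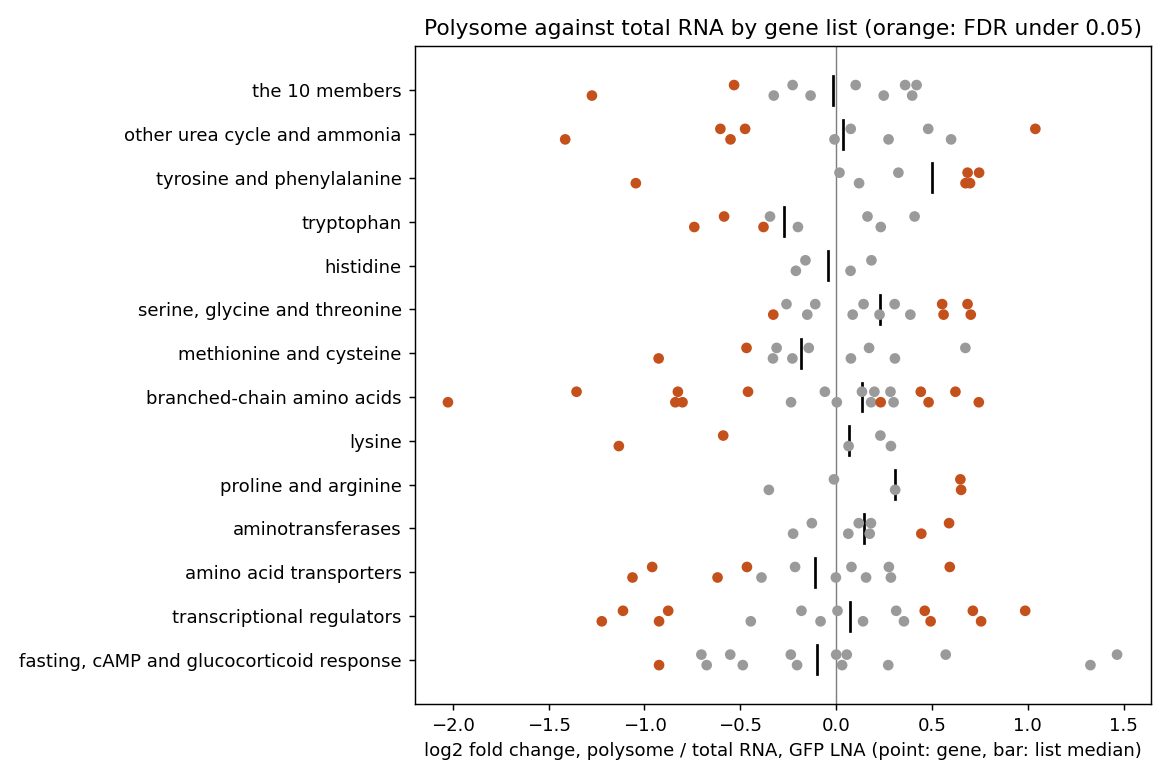
Log2 fold change of polysome against total RNA with GFP LNA (x axis) for each gene of the members, the 10 lists of urea cycle and amino acid breakdown and 3 further lists (y axis); orange points pass the FDR of 0.05, grey points do not, and black bars are list medians. Every list spreads to both sides of 0 or close to it, and Aldh6a1 of the branched-chain list lies farthest to the left at -2.03.

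Between the RNA fractions with GFP LNA, 18 of these 90 genes were higher in polysome RNA and 19 lower, close to the 21.8% and 21% of all genes. With the replicate block they were 36 and 29, beside 28.9% and 27.2% of all genes. The median was 0.10 against 0.029 for all genes tested. The tyrosine and phenylalanine list had 4 of 8 genes higher and 1 lower. Fah, the last enzyme of tyrosine breakdown, was at 0.75 (SE 0.13, adjusted p = 1.1e-04, edgeR). In the branched-chain list 5 of 19 were higher and 6 lower. Aldh6a1, of valine breakdown, was at -2.03 (SE 0.18, adjusted p = 3.8e-08, edgeR) and Dbt, the core subunit of the branched-chain keto acid dehydrogenase, at -1.35 (SE 0.14, adjusted p = 2.8e-07, edgeR).

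The tryptophan list had 0 of 8 higher and 3 lower, Tdo2 among them at -0.74 (adjusted p = 0.0020, edgeR) and Ido2 at -0.58. The serine, glycine and threonine list had 4 of 13 higher and 1 lower, with Agxt, which detoxifies glyoxylate, at 0.70 (adjusted p = 0.0147, edgeR) and Grhpr at 0.69. The methionine and cysteine list had 0 of 10 higher and 2 lower, and the lysine list 0 of 5 and 2, with Dhtkd1 at -1.13 (adjusted p = 1.5e-04, edgeR) and Aass at -0.59. The proline and arginine list had 2 of 5 higher, Prodh2 at 0.65 and Agmat at 0.65, the aminotransferase list 2 of 8 higher, Gpt at 0.59 and Kyat1 at 0.44, and the histidine list 0 of 4 in either direction. Of the remaining urea cycle and ammonia genes 1 of 10 was higher, Car5a, the mitochondrial carbonic anhydrase that supplies bicarbonate to Cps1, at 1.04 (SE 0.27, adjusted p = 0.00421, edgeR), and 4 were lower. With the mouse as a replicate block several of these lists had more calls: tryptophan had 2 higher and 5 lower, methionine and cysteine 3 and 4, lysine 2 and 2, histidine 1 and 2, and serine, glycine and threonine 7 and 2.

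Further lists around the pathway gave 0 calls with SNORA73 LNA in total or polysome RNA, also among 12 amino acid transporters and 16 transcriptional regulators. Of all genes tested 0.0303% passed in total RNA and 0.0153% in polysome RNA. Between the fractions with GFP LNA, 21.8% of all genes tested were higher in polysome RNA and 21% lower. Of the transporters 1 of 12 was higher and 4 lower, with Slc38a2 at -1.06 and Slc7a2, a carrier of arginine and ornithine, at -0.96. Of the regulators 5 of 16 were higher and 4 lower, with Foxa1 at -1.22 and Nr3c1, the glucocorticoid receptor, at -1.11 (SE 0.12, adjusted p = 3.2e-07, edgeR).

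Genes of the fasting, cAMP and glucocorticoid response, signals to which Tat and Sds belong, gave 0 of 13 calls in total RNA, beside 0.0303% of all genes tested. Igfbp1, a liver gene that insulin represses, was at 45.5 to 148 CPM with GFP LNA and 19.8 to 101 CPM with SNORA73 LNA (log2 fold change -1.10, SE 0.44; adjusted p = 0.504, edgeR). Nr4a1, an immediate early gene of cAMP signalling, was at most 5.44 CPM in total RNA (log2 fold change -1.35; adjusted p = 0.538). Mt1, a metallothionein induced by glucocorticoids and metals, was at 966 CPM in total RNA of mouse 10 and 174 CPM in that of mouse 9, against 3.86 to 57.8 CPM in the other 8 mice. Mouse 10 was also the lowest for 5 of 10 members and the highest for Nags. The part of these responses in the members' spread was not tested.

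Of 12 periportal genes, the zone in which the cycle is richest, 0 passed with SNORA73 LNA in total RNA, beside 0.0303% of all genes tested. The log2 fold changes of these periportal genes ran from -0.40 to 0.31 (median 0.13), 7 above 0 and 5 below, and the lowest p values belonged to Sdsl at 0.31 and Cyp2f2 at 0.23. Of 12 pericentral genes 0 passed, with values from -0.095 to 0.30 (median 0.036), again 7 above 0 and 5 below, and the lowest p values belonged to Axin2 at 0.23 and Tbx3 at 0.30. Markers of hepatocytes summed to 43901 to 71751 CPM with GFP LNA and 49035 to 72195 CPM with SNORA73 LNA in total RNA. Those of sinusoidal endothelium (6 genes) summed to 95.5 to 118 CPM and 114 to 132 CPM in total RNA, and to 81.0 to 93.8 CPM and 100.3 to 114 CPM in polysome RNA, where the groups did not overlap. Among single genes tested in polysome RNA 3.23% did not overlap. Stab2, a scavenger receptor of these endothelial cells, rose in total RNA with SNORA73 LNA by 1.06 on the log2 scale (SE 0.15, adjusted p = 0.0497, edgeR) and was named after its value was seen. It was the highest of the 6 and the only 1 called, near the threshold. The 6 endothelial markers had a median of 0.26 in total RNA and ran down to -0.10, with 5 above 0 and 1 below. In polysome RNA 0 of the 6 were called. Markers of Kupffer cells (6 genes) summed to 124 to 196 and 114 to 217 CPM in total RNA, of stellate cells and fibroblasts (7 genes) to 279 to 364 and 236 to 351 CPM, of cholangiocytes (5 genes) to 18.4 to 34.8 and 12.6 to 54.9 CPM, of erythroid cells (5 genes) to 395 to 790 and 232 to 737 CPM and of leukocytes (6 genes) to 43.2 to 92.2 and 37.4 to 69.7 CPM. No marker was at 0 in every library. Their part in the members' values was not tested.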

How the data were processed

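Total and polysome RNA were sequenced from the livers of 10 mice as paired 100-base reads of polyadenylated RNA. Per the labels and the study's methods, the authors trimmed reads with fastp, removed ribosomal reads with a bowtie aligner and quantified transcripts with kallisto, and deposited estimated counts from tximport without normalization. These were rounded to whole numbers before testing. Symbols matched 51903 of 53028 gene IDs, and IDs without a symbol held at most 2.99% of a library's counts.

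Genes with more than 0.5 CPM in at least 4 libraries entered a TMM-normalized quasi-likelihood fit (edgeR 4.0.16, R 4.3.3) with Benjamini-Hochberg adjustment over all genes tested and an FDR of 0.05. SNORA73 LNA was compared with GFP LNA within each kind of RNA (5 libraries a group). The interaction and the polysome against total comparisons came from 1 fit of 20 libraries. Per-mouse log2 values had 0.5 CPM added. Confidence intervals are at 95%. Alternatives were limma-voom (limma 3.58.1), DESeq2 1.42.0, other scalings, no filter, mice left out and the mouse as a replicate block. The mouse number is the same animal in both kinds of RNA, and the deviations of its 2 libraries from their group means correlated in 10 of 10 mice (Pearson r 0.126 to 0.579 over 13795 genes). The lowest r was that of mouse 6, the exception for Otc, Asl, Nags and Sds above, and the next that of mouse 4 (0.153). Libraries of different mice were not correlated for reference.

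All 10 members were named. Of each list, the 2 genes with the lowest p in total RNA and the 2 with the largest polysome against total difference could be named, and likeness was ranked among genes with a mean of at least 10 CPM. Members and lists were chosen with earlier results of these data known. The fits were tested on simulated data before use, in which randomly drawn genes were given a log2 change of 1. Of these changes 72.4% were called in total RNA, 48.5% in polysome RNA and 22.2% in the interaction. A lack of calls among the members therefore does not show a lack of change.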

Additional observations from a re-analysis of the deposited data

Results flagged for a closer look

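Of 40 combinations of a member with a group, 2 held a library far from the other 4 by Dixon's ratio of its gap to the range of the group, whose critical value is 0.71 for 5 samples, and chance gives about 1 in 20. Asl was at 204 CPM in total RNA of GFP mouse 2, against 144 to 158 CPM in the other GFP mice (ratio 0.726). Arg1 was at 2022 CPM in total RNA of SNORA73 mouse 12, against 1259 to 1426 CPM in the other SNORA73 mice (ratio 0.737).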

How the results depend on the processing

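Of 850 alternative values, 787 kept direction and side of the threshold, 7 lost a call, 9 gained one and 47 changed sign, and the cause was not tested. No member was called with SNORA73 LNA under any alternative in total or polysome RNA or in the interaction. Genes called in all numbered 68 in total RNA, 282 in polysome RNA and 7 in the interaction with DESeq2, 2 and 0 in total and polysome RNA with library totals, 13 and 72 with no filter, and 97, 31 and 0 in the 3 comparisons without mice 9 and 10. They numbered 317 in polysome RNA with 1 fit of all 20 libraries, and 0 in the interaction with limma-voom. With the mouse as a replicate block, members called between the fractions numbered 8 with GFP LNA and 6 with SNORA73 LNA.

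In total RNA Slc25a15 was at -0.0018 with limma-voom, -0.000486 with DESeq2, -0.000618 with DESeq2 size factors and -0.014 with no filter. With library totals Arg1 was at -0.062, Slc25a15 at -0.14 and Gls2 at -0.098 in total RNA, and Otc at -0.095 and Asl at -0.086 in polysome RNA. Without mice 9 and 10 Cps1 was at 0.16 and Otc at 0.015 in total RNA, Cps1 at 0.12, Nags at -0.0026 and Slc25a15 at 0.024 in polysome RNA, and Sds at 0.0046 in the interaction.

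Leaving out each mouse in turn, the total RNA comparison gave 1 to 59 genes called, the polysome comparison 0 to 17 (the most without mouse 9 in both) and the interaction 1 to 2. Log2 values that changed sign in total RNA ranged from -0.042 to 0.19 for Arg1, -0.11 to 0.075 for Cps1, -0.068 to 0.15 for Gls2, -0.057 to 0.035 for Otc and -0.053 to 0.060 for Slc25a15. In polysome RNA they ranged from -0.14 to 0.061 for Arg1, -0.12 to 0.18 for Asl, -0.23 to 0.034 for Cps1, -0.29 to 0.013 for Gls2, -0.062 to 0.13 for Otc and -0.069 to 0.035 for Slc25a15. In the interaction they ranged from -0.26 to 0.082 for Asl, -7.5e-05 to 0.081 for Ass1, -0.17 to 0.074 for Cps1, -0.079 to 0.13 for Otc and -0.15 to 0.021 for Sds.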
